A study of Mus musculus with 112 samples.

Results

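The cell cycle genes described here are 40 genes whose products copy DNA or carry a cell through mitosis, followed across mouse mammary tumours of different genetic background. Every probe set of the 2 arrays whose only platform gene symbol was one of these genes was taken. That gave 71 probe sets of 39 genes on array A and 17 probe sets of 12 of the same genes on array B, 88 of 45137 probe sets in all. Cyclin B1 (Ccnb1) had no probe set of its own by this rule and was not analysed here. The genes were divided by role into 14 S phase genes and 26 genes of G2 and mitosis, here called mitosis genes, of which 25 were measured. All tumours arose spontaneously in mice with the PyMT transgene, which encodes polyoma middle T antigen. The mouse mammary tumour virus (MMTV) promoter, active mainly in mammary epithelium, drove it in every group. The mice came from crosses with 18 AKXD sublines, recombinant inbred lines whose founders were AKR/J and DBA/2J. The series holds 56 tumours, 3 from each of 16 sublines and 4 each from sublines 2 and 25, and each tumour was hybridised to an Affymetrix MOE430A (array A) and an MOE430B (array B). All groups carried the transgene and no subline served as a control, so each subline was compared with the others. The labels give no age. As the members' rule sets out, 4 arrays A (subline 23 and tumour 3 of subline 25) and 3 arrays B (tumour 3 of subline 11, tumour 2 of subline 23 and tumour 3 of subline 25) were left out. This kept 52 tumours of 17 sublines on array A and 53 tumours of 18 sublines on array B.

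Cells that enter the cycle first load the MCM helicase onto DNA, make deoxynucleotides and copy the genome under cyclin E and cyclin A kinases. They then divide under cyclin B and Cdk1, with Aurora and Polo kinases, the spindle checkpoint and the anaphase-promoting complex ordering the steps. The S phase genes are known targets of the E2F transcription factors, and the mitosis genes of complexes that bind the CHR element and the CCAAT box. Because these transcripts are made mostly in cycling cells, their level in a whole tumour is often read as a measure of proliferation. In bulk tumour RNA, fewer cycling cells and less of these RNAs per cell cannot be told apart.

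The promoters of S phase and mitosis genes held different sequence words. RefSeq promoter windows of the GRCm38.p6 assembly, from 250 bases before to 50 bases after the annotated start, were found for 34 of the 40 genes. The words TTTGAA and TTCGAA (CHR), on either strand, were in the windows of 15 of 22 mitosis genes (68.2%) and 2 of 12 S phase genes (16.7%), and in 17.3% of the 9888 genes on array A with a window. The E2F words (TTCCCGC or TTGGCGC or TTCGCGC or TTGCCGC, some of which overlap each other), on either strand, were in 8 of 12 S phase genes (66.7%) and 3 of 22 mitosis genes (13.6%), against 17.2% of genes on array A. CCAAT was common in both, in 81.8% of mitosis and 66.7% of S phase genes, against 42.3% of genes on array A. Over all 32851 windows in the table the shares were 19.2% for CHR, 9.57% for E2F and 37.4% for CCAAT. A match describes the letters and does not show that a factor binds there. The 4 mitosis promoters printed next belong to Cdk1 and Ccnb2, which followed the other cell cycle genes closely across tumours, and to Cdc20 and Kif11, which were lower in single sublines. Each is the 180 bases before the annotated start, 5′ to 3′ on the strand of the gene, in GRCm38.p6, with the CHR words and the CCAAT boxes in capitals (ATTGG and TTCAAA are the same words on the other strand).
Cdk1 (chr10:69352913-69353092, minus strand): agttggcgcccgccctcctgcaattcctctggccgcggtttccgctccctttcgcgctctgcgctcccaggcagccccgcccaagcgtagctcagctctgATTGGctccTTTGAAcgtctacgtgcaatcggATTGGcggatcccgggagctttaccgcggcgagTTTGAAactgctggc
Ccnb2 (chr9:70421555-70421734, minus strand): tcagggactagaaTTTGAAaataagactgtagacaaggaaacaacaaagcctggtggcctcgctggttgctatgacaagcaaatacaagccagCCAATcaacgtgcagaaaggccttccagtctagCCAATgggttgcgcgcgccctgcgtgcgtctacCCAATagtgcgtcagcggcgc
Cdc20 (chr4:118437344-118437523, minus strand): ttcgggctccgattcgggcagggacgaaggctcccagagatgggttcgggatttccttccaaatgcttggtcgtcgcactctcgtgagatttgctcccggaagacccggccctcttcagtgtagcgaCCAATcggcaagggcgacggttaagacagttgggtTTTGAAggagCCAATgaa
Kif11 (chr19:37376202-37376381, plus strand): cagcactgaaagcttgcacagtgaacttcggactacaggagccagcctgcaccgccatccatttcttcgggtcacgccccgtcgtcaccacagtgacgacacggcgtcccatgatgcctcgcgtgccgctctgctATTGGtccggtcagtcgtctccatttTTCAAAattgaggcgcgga

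The 2 S phase promoters that follow are those of the helicase subunits Mcm6, the S phase gene closest to the set's mean across tumours, and Mcm5, which had the widest spread among tumours. They are the 180 bases before the start in the same build, with the E2F words in capitals and any other word in lower case.
Mcm6 (chr1:128359706-128359885, minus strand): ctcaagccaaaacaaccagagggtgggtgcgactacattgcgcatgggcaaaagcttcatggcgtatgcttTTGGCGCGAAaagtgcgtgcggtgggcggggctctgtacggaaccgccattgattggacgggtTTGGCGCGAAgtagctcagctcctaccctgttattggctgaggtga
Mcm5 (chr8:75109329-75109508, plus strand): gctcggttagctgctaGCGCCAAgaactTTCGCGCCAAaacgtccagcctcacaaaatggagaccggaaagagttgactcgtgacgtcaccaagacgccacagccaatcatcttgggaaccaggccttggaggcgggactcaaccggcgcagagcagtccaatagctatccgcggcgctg

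In Cdk1 the CHR words began 71 and 15 bases before the start, and in Cdc20 the word began 18 bases before it, between CCAAT boxes. Ccnb2 had a second CHR word that began at base 5 after the start, outside the printed stretch. The printed stretch of Cdk1 also holds 2 E2F words, left in lower case. In Mcm6 and Mcm5 the capitals run together because TTGGCGC and its neighbour TTCGCGC share letters.

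The kept arrays were alike, with a median correlation with the other arrays of their type of at least 0.970 on array A and 0.968 on array B. The arrays left out read 0.223 to 0.948 and 0.858 to 0.919. No counts lie behind these values, and precision is set by how many arrays there are; all levels are log2 values. Probe sets for Bacillus genes, which mouse cells do not have, marked the level of no mouse RNA, and their mean read 4.79 to 5.10 on array A and 4.62 to 4.86 on array B. All 7 luminal epithelium markers lay above these controls, Krt8 at a mean of 12.59 and Epcam at 13.12. P-values measure the spread between tumours of a subline, which the labels call biological replicates. For each probe set that spread is pooled over all sublines of the array. A limma SE or p-value therefore does not reflect the scatter of a single subline's own tumours.

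Cell cycle transcripts were plentiful in these tumours. The brightest probe set of each gene had a median level of 9.23 over the 39 genes, and 38 of them lay above the controls by their mean. Pcna, the sliding clamp of DNA polymerase, had a lowest tumour of 11.43, a median of 11.83 and a highest of 12.17. Levels of different genes come from different probes and were not ranked against each other. Cenpe, a kinesin of the kinetochore, had a mean below the controls on array A (4.53) but not on array B (8.03). The thymidylate synthase gene Tyms was near the controls on all its probe sets with a single symbol on array A (4.77 to 5.12), and a probe set shared with a Tyms pseudogene was left out by the rule. In all, 64 of 71 member probe sets on array A and 15 of 17 on array B had a mean above the controls.

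The genes rose and fell together from tumour to tumour. Over the 52 tumours the median Pearson correlation between 2 of the 39 genes was 0.65 (741 pairs, 707 of them above 0), against -0.0045 over all pairs of the 12393 genes on array A. These correlations describe tumours that share labelling, array type and normalization. Mitosis genes were the more uniform, with a median of 0.72 and all 300 pairs above 0. S phase genes had a median of 0.53 (79 of 91 pairs above 0), and pairs of 1 S phase and 1 mitosis gene a median of 0.61. The S phase pairs include Tyms and Ccne2, near the controls (means 5.12 and 5.18), and the mitosis pairs include Cenpe, below them. Against the mean of all other members, 24 genes had a correlation over 0.8. The closest were Cenpa, the centromeric histone variant (0.93), cyclin B2 (Ccnb2, 0.93), the mitotic kinase Cdk1 (0.93) and the Polo kinase Plk1 (0.91), followed by Mcm6 (0.91). At the other end were 4 genes at 0.50 or under: cyclin E1 (Ccne1, 0.50), Cenpe (0.45), the transcription factor Foxm1 (0.33) and Tyms (-0.20). Of these, Cenpe and Tyms are the genes below or near the controls, whereas Foxm1 was well above them (mean 8.97) and varied least, 1.46-fold between the lowest and the highest tumour.

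**Figure D1:**
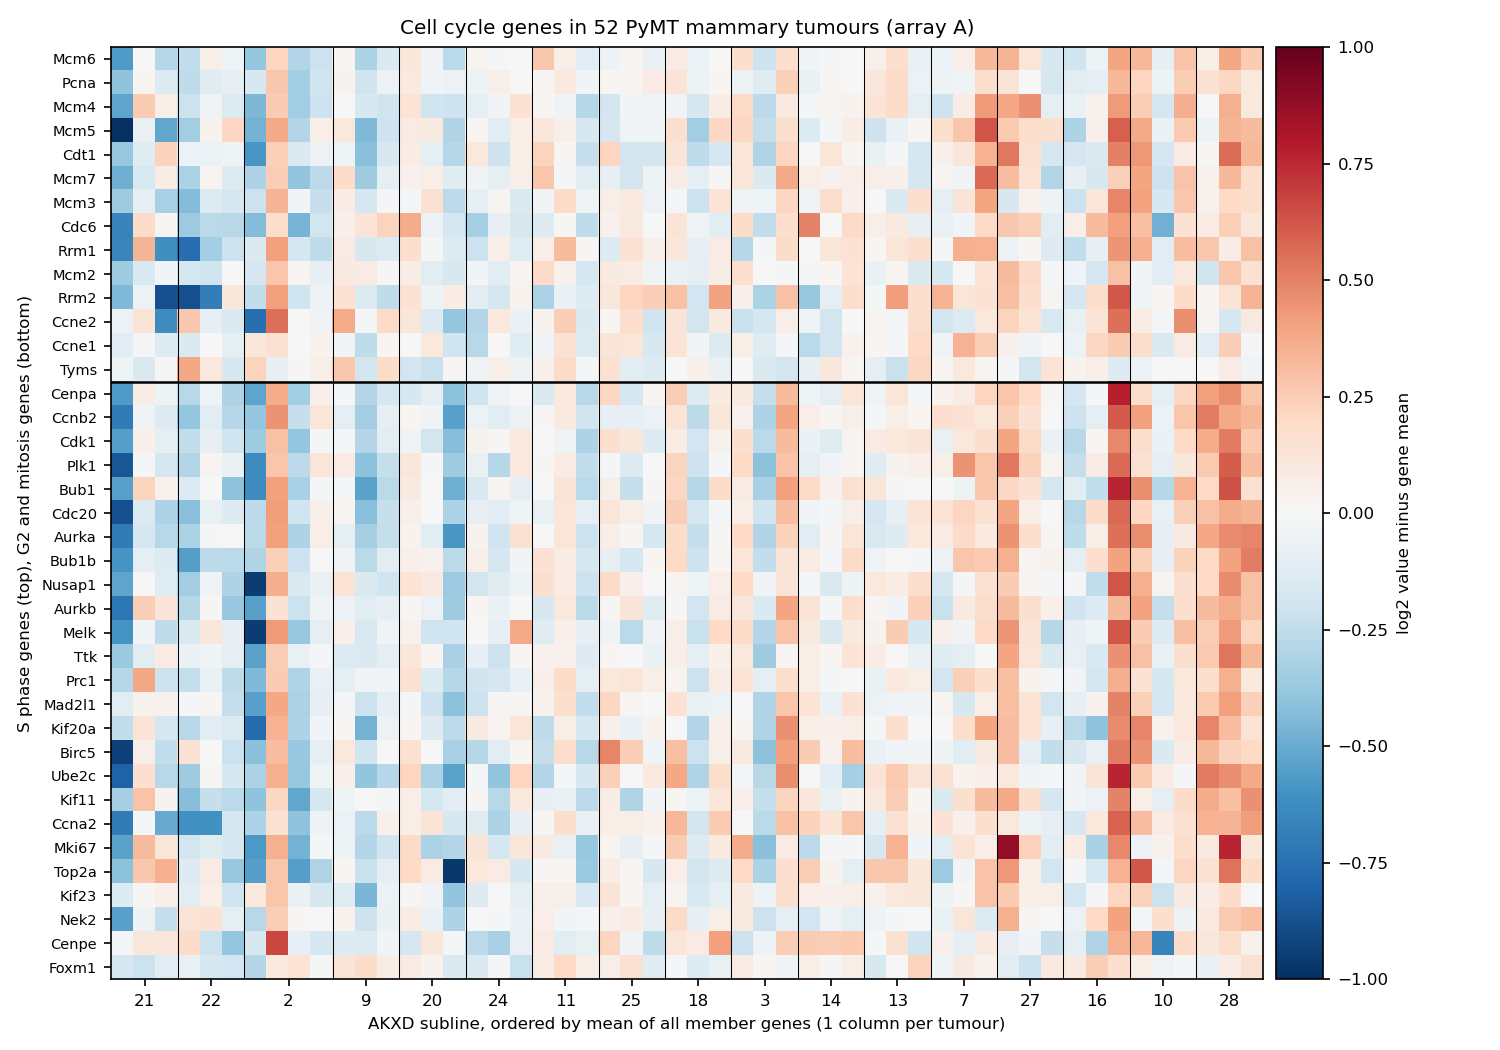
Levels of the 39 cell cycle genes (rows, S phase above the line, mitosis below) in 52 tumours (columns, grouped by subline and ordered by subline mean) on array A, as the centred log2 level of the brightest probe set, with colours ending at 1 in each direction. In 31 of the 52 columns at least 30 genes lie on the same side of their mean, such as tumour 1 of subline 21 (blue) and tumour 3 of subline 16 (red).

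The common level, the average of the 39 genes after each was centred on its own mean, ran from -0.49 to 0.46, a 1.92-fold range. The lowest tumour was tumour 1 of subline 21, which lay below the mean for all 39 genes and was the lowest of all tumours for 19 of them. Tumour 1 of subline 2 was next at -0.39 and was the lowest for 11 genes. The highest was tumour 3 of subline 16 at 0.46, above the mean for 38 genes and the highest of all tumours for 18. The other tumours of these sublines did not share the extreme. Subline 16 read -0.12, -0.02 and 0.46, and the 4 tumours of subline 2 read -0.39, 0.30, -0.24 and -0.07, the widest range within a subline (0.69). In 15 of 17 sublines tumours lay on both sides of 0. The SD between tumours of a subline was 0.17 and that of the subline means 0.11, so that most of the spread was within sublines.

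Most single genes spread more than the mean did. Between the lowest and the highest tumour the 39 genes differed 1.46-fold to 3.17-fold, with a median of 2.25-fold, and between the lowest and highest subline mean 1.19-fold to 1.86-fold, with a median of 1.46-fold. Among S phase genes Mcm5, a subunit of the replicative helicase, had the widest range, from 8.31 through a median of 9.39 to 9.98. Rrm2, the small subunit of ribonucleotide reductase, ran from 9.63 through 10.54 to 11.13, a 2.83-fold range. Mcm2, another helicase subunit, ran only from 9.12 to 9.79 (median 9.46), and Ccne1, which drives entry into S phase, from 7.76 to 8.40 (median 8.04). The helicase genes thus differed 1.59-fold in Mcm2 to 3.17-fold in Mcm5.

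Among mitosis genes the proliferation antigen Mki67 ran from 9.43 through 9.99 to 10.88, 2.73-fold, and its highest tumour was tumour 1 of subline 27. Topoisomerase II alpha (Top2a), which untangles sister chromatids, ran 3.00-fold, from 9.24 through 10.24 to 10.83. Nusap1, a spindle microtubule protein, ran 2.99-fold, and the ubiquitin-conjugating enzyme Ube2c, which works with the anaphase-promoting complex, 2.97-fold. Melk, a kinase of proliferating cells, also ran 2.97-fold. Kif23, a kinesin of cytokinesis, ran 1.67-fold. The common proliferation markers Mki67 and Top2a were thus not those closest to the set's mean (0.77 and 0.76).

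The tumour-to-tumour pattern was alike on most other probe sets that were bright. On array A 32 further probe sets measured the same genes. Of the 20 with a mean over 7, 19 had a correlation over 0.5 with the gene's brightest probe set, against 3 of the 12 dimmer ones. On array B, over 51 tumours kept on both arrays, 4 of 7 brighter and 0 of 10 dimmer probe sets did so. The spindle checkpoint kinase Bub1b (0.84) and Mcm5 (0.73) were the closest there, while a Cenpa probe set with a mean of 7.02 on array B had a correlation of 0.11.

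Whether the sublines differed was tested with limma's moderated F test over all probe sets, and a probe set is called at a Benjamini-Hochberg adjusted p under 0.05. On array A 1 of 71 member probe sets was called, against a background of 1.74% of all probe sets. An unadjusted p under 0.05 was reached by 8 of 71 (11.3%), against 15.2% of all probe sets, by 1 of 31 S phase and 7 of 40 mitosis probe sets. As a group the cell cycle genes thus passed no more often than probe sets in general, although they varied more: the median range over subline means was 0.53 for members and 0.35 for all probe sets. The SD within sublines was also larger, 0.21 against 0.15. The median intraclass correlation, the share of variance that lies between sublines, was 0.055 for members and 0.048 for all probe sets.

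The gene that passed was Ccna2, which encodes cyclin A2, the partner of Cdk2 in S phase and of Cdk1 at the entry into mitosis. Its tumours ran from 9.87 through a median of 10.61 to 11.16. Of the subline means (± SD, n = 3 each), the lowest were 10.11 ± 0.25 in subline 22 and 10.16 ± 0.35 in subline 21. The highest were 10.78 ± 0.07 in subline 14 and 10.94 ± 0.04 in subline 28. The highest and lowest subline differed 1.78-fold (limma adjusted p = 0.0392), and 48 of the 49 other tumours lay below all 3 of subline 28. No neighbours in the order of subline means from 10.39 to 10.75 differed by as much as the SD within sublines (0.20). The second Ccna2 probe set (mean 9.58) also had subline 28 highest, but its lowest was subline 21, and it was not called (limma adjusted p = 0.608). The call was also lost with all arrays, the replicate block and median centring (limma adjusted p = 0.525, 0.0521 and 0.0551). It was lost without any 1 of the replicate numbers (0.0534 to 0.787) and without tumour 1 of subline 21 (0.0687).

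The genes next in order on array A did not pass. They were Bub1b (limma adjusted p = 0.115), Rrm2 (0.242), Cdc20, which activates the anaphase-promoting complex (0.254), the spindle kinase Aurka (0.266), Foxm1 (0.285), the spindle motor Kif11 (0.308) and the helicase subunit Mcm7 (0.343). Bub1b ran from 8.87 ± 0.16 in subline 22 to 9.61 ± 0.16 in subline 28, and Aurka from 8.28 ± 0.28 in subline 21 to 9.11 ± 0.05 in subline 28 (n = 3 each, ± SD). Mki67, Top2a, Mcm2, Pcna and Ccne1 had limma adjusted p of 0.832, 0.759, 0.813, 0.703 and 0.604. Subline 28 had the highest mean for 24 of the 39 genes, and subline 21 (17 genes) or subline 22 (9 genes) the lowest for most.

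**Figure D2:**
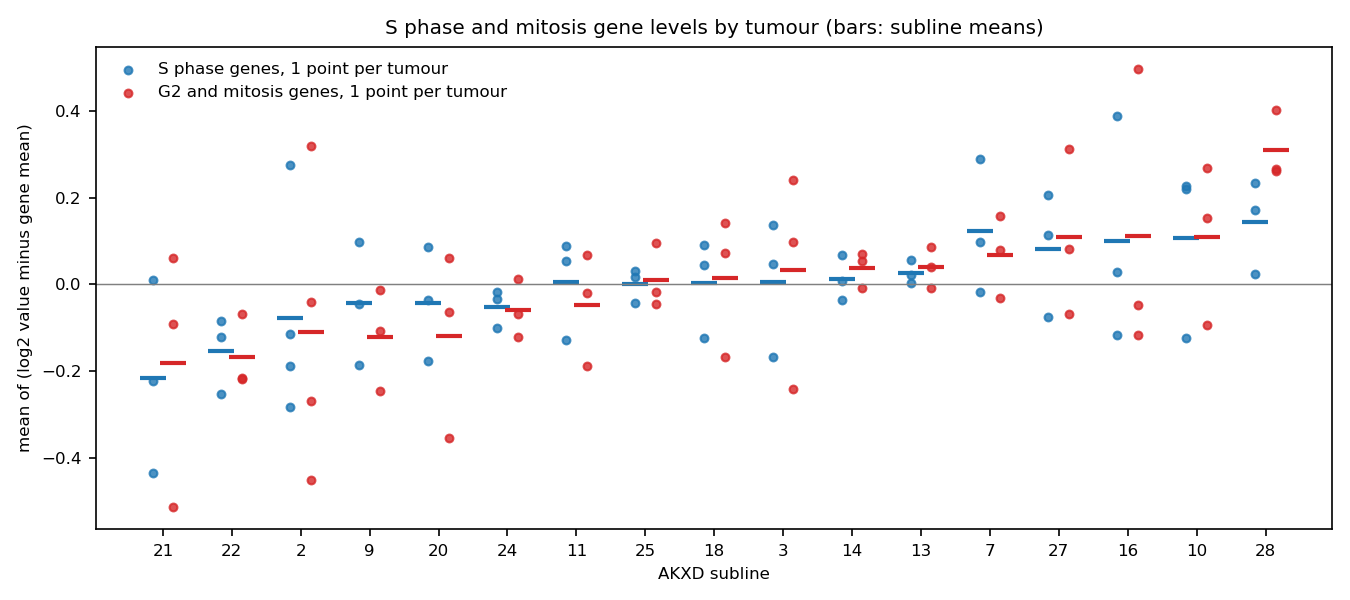
Mean centred log2 level of S phase genes (blue) and mitosis genes (red) on array A, with 1 point per tumour and a bar at each subline's mean, sublines in order of all members' mean. Subline 28 stands highest for mitosis genes, while sublines 2, 16 and 21 span most of the range on their own.

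Each subline was next set against the unweighted mean of the other sublines, in the same fit. On array A 9 of 1207 such member comparisons were called, all of them lower in subline 21 or subline 22, against a background of 0.459% of all comparisons. Those sublines also held 1565 of the 1764 calls over all probe sets of the array, so this concentration is shared by probe sets in general. Member probe sets rise and fall together, so counts of them within a subline are not independent of each other.

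In subline 21, 4 of 71 probe sets were called lower, against a background of 0.99%, and 68 of 71 lay below 0, with a median difference of -0.17 on the log2 scale. An unadjusted p under 0.05 was reached by 28, against 8.78% of all probe sets, 13 of 31 S phase and 15 of 40 mitosis probe sets. All 14 S phase genes and 23 of 25 mitosis genes lay below 0 on their brightest probe set. Mcm5 read 8.31, 9.27 and 8.83 in the 3 tumours, against 8.87 to 9.98 (median 9.40) in the 49 others. Tumours 1 and 3 were below every other tumour and tumour 2 was not. The difference was -0.58 ± 0.15 (SE, limma adjusted p = 0.0254). On array B the bright Mcm5 probe set differed by -0.37 ± 0.19 and the dim one by -0.09 ± 0.07, neither called (limma adjusted p = 0.372 and 0.555). Cdc20 read 9.52, 10.26 and 10.09, against 9.98 to 10.97 (median 10.40), with only tumour 1 outside the others' range. It differed by -0.47 ± 0.13 (limma adjusted p = 0.0278), 1.38-fold lower.

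Ccna2 in subline 21 read 9.87, 10.55 and 10.06, against 9.96 to 11.16, and 19 other tumours lay below tumour 2. The difference was -0.44 ± 0.12 (SE, limma adjusted p = 0.0279), 1.35-fold lower, and -0.28 ± 0.12 on the other probe set (adjusted p = 0.199). The other Cdc20 probe sets, at -0.32 ± 0.13 and -0.23 ± 0.08, were not called (adjusted p = 0.159 and 0.0776). Mcm7 was lower on 1 probe set, at 8.97, 9.29 and 9.23 against 9.09 to 9.77, by -0.30 ± 0.09 (limma adjusted p = 0.0472). On its brightest probe set it was not called, at -0.20 ± 0.13 (adjusted p = 0.380). Mki67, the usual label of cycling cells, read 9.46, 10.31 and 10.12 there, with tumours on both sides of the others' median of 9.98.

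The calls of subline 21 were lost without tumour 1, when limma called 0 of 71 probe sets in that subline and 3 had an unadjusted p under 0.05. Without that tumour Mcm5, Cdc20, Ccna2 and Mcm7 differed by -0.33, -0.25, -0.29 and -0.21 (limma adjusted p = 0.367, 0.402, 0.318 and 0.358). Without replicate 3 of all sublines limma called 0 (18 at an unadjusted p) and without replicate 2 it called 11, while all arrays and array weights gave 0 each (1 and 8). Tumour 1 also had the lowest level of the luminal epithelium markers of any tumour. The mean of those 7 genes was -0.94 there and 0.04 and -0.12 in tumours 2 and 3, against -0.35 to 0.29 in other sublines. Krt8 read 11.60 and Epcam 12.32, against at least 12.33 and 12.85 in the 51 other tumours, and the mean of the 7 basal and myoepithelial markers was its highest (0.70, against -0.45 to 0.66 in other sublines). The contractile genes Acta2 (12.62, median of all tumours 10.58), Mylk (11.09, 8.72) and Myh11 (7.61, 6.83) and Trp63 (8.96, 7.76) were above their medians. The keratins Krt5 (8.86, 9.29), Krt14 (9.01, 9.57) and Krt17 (6.02, 6.07) were below theirs. Over subline 21 all 12 luminal probe sets lay below 0, 11 with an unadjusted p under 0.05, and 4, all of the tight junction gene Cldn3, were called lower. Of all probe sets, 8.78% were lower at an unadjusted p under 0.05 and 0.99% were called lower. Adipocyte markers read -0.89 to -0.63 and muscle markers -2.70 to -0.73, within the others' range. The 3′ minus 5′ difference of the Gapdh control probe sets, a sign of RNA quality, was -0.09, -0.16 and 0.19 in the 3 tumours, against -0.28 to 0.12 (median -0.18) in other sublines, so that tumour 3 was outside their range. That of Actb, at 0.31, 0.14 and 0.49, was within it. Over all 52 tumours the common cell cycle level had a Pearson correlation of 0.25 with luminal and 0.01 with basal markers. For luminal markers the Spearman correlation was -0.03, and Pearson was -0.12 without the 2 tumours farthest from the median. The part of these measures in the cell cycle differences was not tested.

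In subline 22, 5 of 71 probe sets were called lower, against a background of 2.56%, and 66 lay below 0 (median difference -0.15). An unadjusted p under 0.05 was reached by 14, against 7.81% of all probe sets, 6 of 31 S phase and 8 of 40 mitosis probe sets. The kinesin Kif11, which pushes the spindle poles apart, read 7.18, 7.27 and 7.38 on the called probe set, against 7.26 to 8.78 (median 7.84), and only 2 of 49 other tumours lay below the highest of them. The difference was -0.58 ± 0.15 (SE, limma adjusted p = 0.0193). On its brightest probe set Kif11 differed by -0.33 ± 0.12 and was not called (adjusted p = 0.111).

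Both subunits of ribonucleotide reductase, which makes deoxynucleotides, were called in subline 22 on 1 of 3 Rrm2 and 1 of 2 Rrm1 probe sets. Rrm2 read 9.63, 9.82 and 10.63, against 9.63 to 11.13 (median 10.55), so that tumour 3 lay with the others and tumours 1 and 2 at their lower end. It differed by -0.52 ± 0.15 (limma adjusted p = 0.0446). Rrm1, the large subunit, read 9.60, 10.02 and 10.14, against 9.69 to 10.80 (median 10.38), and differed by -0.46 ± 0.14 (limma adjusted p = 0.0462). The other Rrm2 probe sets differed by -0.14 ± 0.16 and -0.19 ± 0.16 (adjusted p = 0.796 and 0.676) and the other Rrm1 probe set by -0.17 ± 0.12 (0.567). Ccna2 read 9.96, 9.96 and 10.40, against 9.87 to 11.16, with the smallest adjusted p of the 5, at -0.49 ± 0.12 (limma adjusted p = 0.0109), and -0.16 ± 0.12 on its other probe set (0.602). Bub1b, which holds back anaphase, read 8.68, 8.97 and 8.96, against 8.65 to 9.74, and differed by -0.39 ± 0.11 (limma adjusted p = 0.0305). On array B its bright probe set differed by -0.29 ± 0.18 and its dim one by 0.03 ± 0.07, neither called (limma adjusted p = 0.796 and 0.994). For Ccna2 and Bub1b 8 and 4 of the 49 other tumours lay below the highest of subline 22. By contrast, Mcm5 (9.00, 9.38 and 9.56) lay on both sides of the others' median of 9.40.

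Leaving out replicate 1, 2 or 3 in all sublines, limma called 0, 0 and 3 probe sets lower in subline 22, and 5, 16 and 10 had an unadjusted p under 0.05. With all arrays it called 0 (4 at an unadjusted p). Markers of adipocytes and muscle were high in tumours 2 and 3 of subline 22 and near the others' median in tumour 1. The 6 adipocyte genes measured had mean levels of 0.08, 1.40 and 1.32, against -1.27 to 1.54 (median -0.12) elsewhere, and 6 of their 9 probe sets had an unadjusted p under 0.05 in that direction. For all probe sets the share in the higher direction is not given here. The 8 muscle genes read 0.01, 1.60 and 2.72, against -2.75 to 2.50, and all 11 macrophage probe sets lay above 0 (median 0.25). Luminal markers read 0.03 to 0.29, against at most 0.19 in other sublines. Over all 52 tumours the common cell cycle level had a correlation of -0.28 with adipocyte and -0.12 with muscle markers. With macrophage and fibroblast markers it was -0.42 and -0.43. The Gapdh 3′ minus 5′ difference was 0.09, 0.09 and -0.12, against -0.28 to 0.19 (median -0.18) in other sublines, and its mean of 0.02 was the highest of all sublines. That of Actb was 0.36, 0.27 and 0.27 (others 0.08 to 0.72). Over all 52 tumours the Gapdh difference had a correlation of 0.04 with the common cell cycle level. The part of these cells and of RNA quality in the lower values was not tested.

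Subline 28 lay on the other side. None of its 71 probe sets was called higher by limma (background 0.0663%), but 27 had an unadjusted p under 0.05 in that direction, against 5.6% of all probe sets, and 68 lay above 0. Of these 27, 23 were among the 40 mitosis probe sets and 4 among the 31 S phase probe sets. Since member genes moved together across tumours, these counts are not separate results. All 25 mitosis genes lay above 0, with a median difference of 0.34 on the brightest probe set, and 13 of 14 S phase genes, with a median of 0.16. The smallest adjusted p among members was that of Bub1b (0.0853). Ube2c read 10.87, 10.82 and 10.73, against 9.55 to 11.12 (median 10.34), and differed by 0.48 ± 0.15 (limma adjusted p = 0.182), 1.40-fold. Aurka read 9.05, 9.13 and 9.15, against 7.96 to 9.21 (median 8.67), and differed by 0.48 ± 0.13 (limma adjusted p = 0.102).

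The tumours of subline 28 were alike for the mitosis genes, whose mean was 0.27, 0.40 and 0.26 there. Cdk1 read 10.72, 10.87 and 10.61, and 45 of the 49 other tumours lay below all of them. Cyclin B2 read 9.80, 9.67 and 9.62, with 45 of 49 below. Ttk, a kinase of the spindle checkpoint, read 7.88, 8.16 and 7.96, with 46 of 49 below. S phase genes were less far out: Mcm6 read 10.11, 10.45 and 10.31, with 35 of 49 below, and Mcm2 read 9.27, 9.75 and 9.63, with only 1 below. In these tumours the fibroblast and matrix markers read -0.04, -1.80 and 0.23. All 10 of their probe sets lay below 0 and 6 had an unadjusted p under 0.05. The share of all probe sets that did so in the lower direction is not given here. Luminal markers were at 0.01 to 0.09. The Gapdh 3′ minus 5′ difference was -0.14, 0.09 and -0.22, against -0.28 to 0.19 (median -0.18) in other sublines. That of Actb was 0.37, 0.45 and 0.24 (others 0.08 to 0.72). The common cell cycle level had a Pearson correlation of -0.43 with the fibroblast and matrix markers over all 52 tumours. The part of the markers and of RNA quality was not tested.

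**Figure D3:**
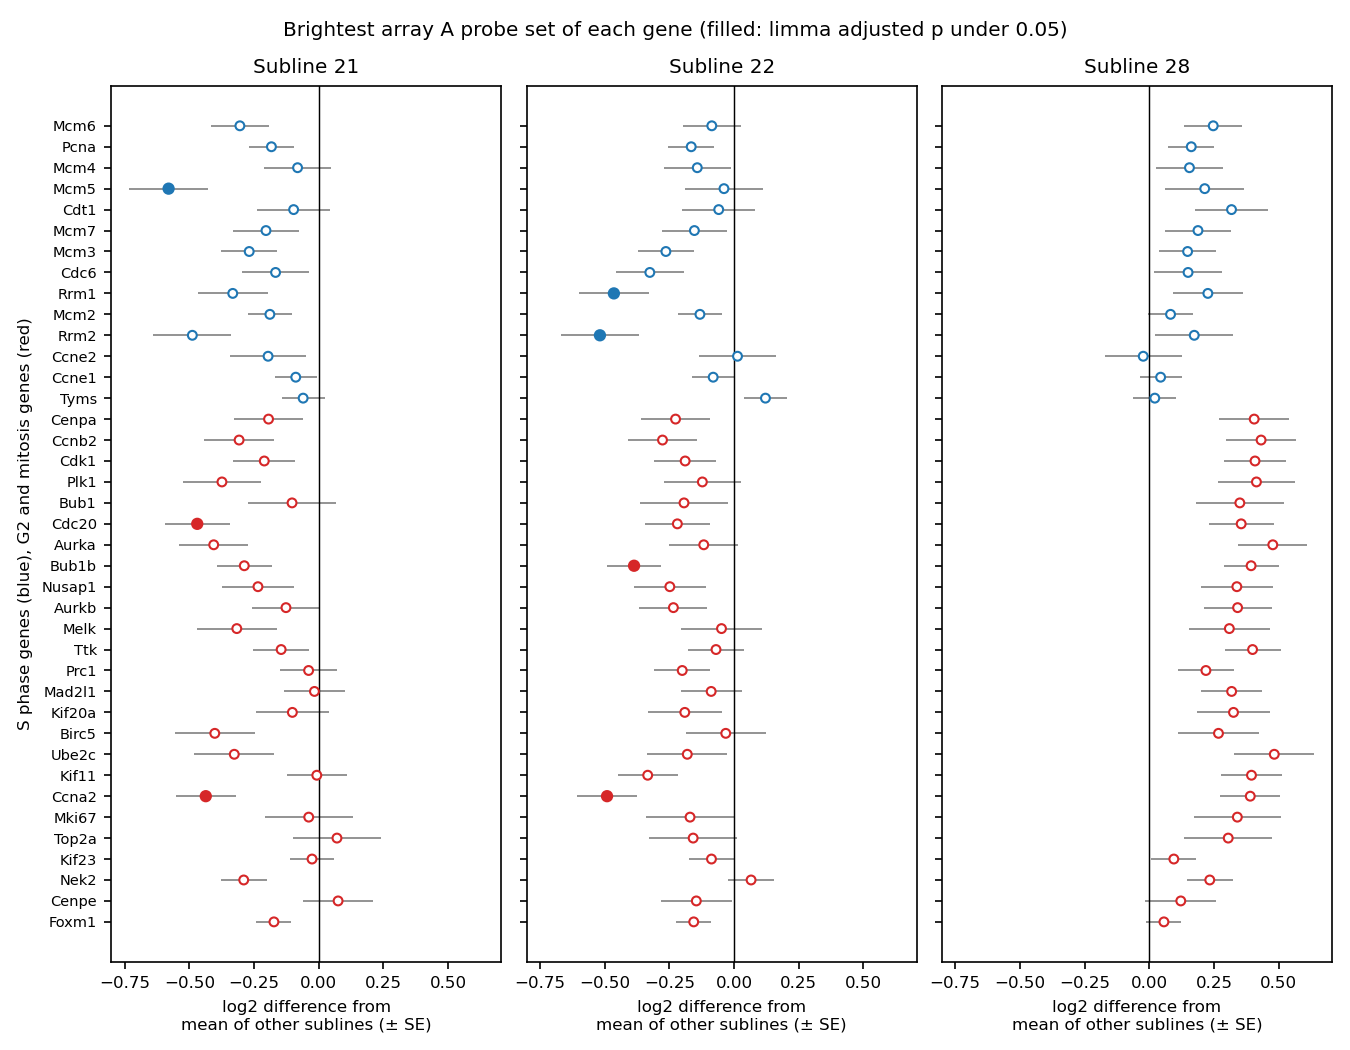
Difference of sublines 21, 22 and 28 from the mean of the other sublines (log2, ± SE from limma) for the brightest array A probe set of each gene, S phase in blue and mitosis in red, filled where called. Nearly all genes lie left of 0 in sublines 21 and 22, with 3 and 4 of them called, and in subline 28 the mitosis genes lie further right than the S phase genes with none called.

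S phase and mitosis genes were also set against each other. Across the 52 tumours the mean of one group tracked that of the other (Pearson 0.92, Spearman 0.92, and 0.89 without the 2 tumours farthest from the median). After subtracting subline means the Pearson correlation was 0.93. The mitosis mean ran over a wider range, 1.01 on the log2 scale (2.02-fold), against 0.82 (1.77-fold) for S phase genes. The S phase mean includes Tyms and Ccne2, whose probe sets lay near the controls (5.12 and 5.18). The mitosis mean includes Cenpe, which lay below them (4.53). The part of these dim probe sets in the ranges, and in the difference between both means, was not tested. The difference between both means ran over 0.42 among tumours and 0.24 among subline means, with an SD within sublines of 0.08. Subline 28 had the lowest balance, -0.17, with its tumours at -0.24, -0.17 and -0.09. That means more mitosis than S phase signal relative to the other tumours. Sublines 9 and 20 were at the other end at 0.08 each. In general the balance fell as the common level rose (Pearson -0.57, Spearman -0.51). That level holds 25 mitosis and 14 S phase genes, and the mitosis mean varied more. The fall thus follows from how the scores are built and is not a separate result. These groups were compared without a test, since the members were chosen with results known.

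**Figure D4:**
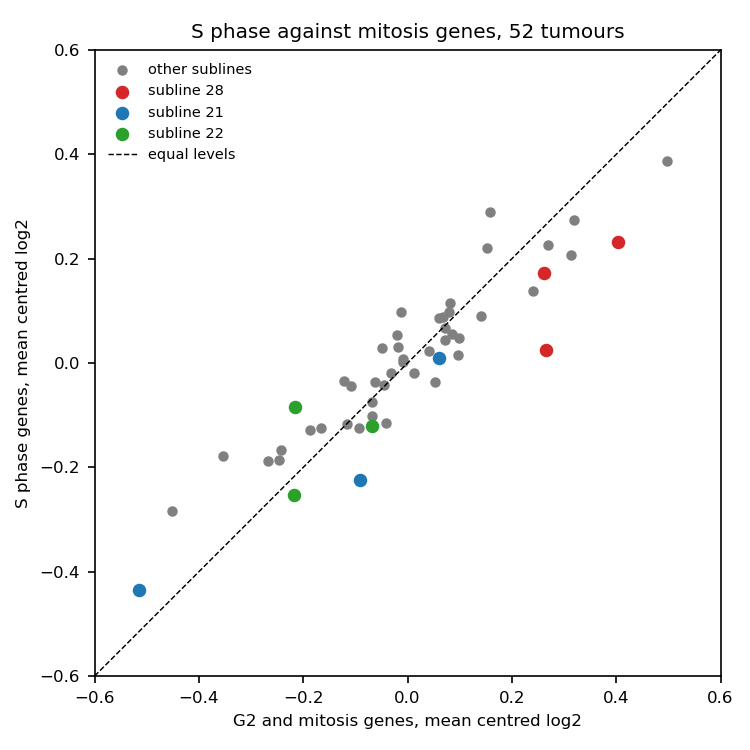
Mean centred log2 level of S phase genes against that of mitosis genes in the 52 tumours, with sublines 21, 22 and 28 coloured and a dashed line of equal levels. The points follow the line closely, and the 3 tumours of subline 28 lie below it.

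On array B limma's F test called 0 of 17 member probe sets (background 0.671%), and 4 had an unadjusted p under 0.05, against 11.0% of all probe sets. They were a Cenpa probe set (limma adjusted p = 0.0513), and probe sets of Aurka (0.156), Mcm6 (0.269) and Bub1b (0.291). The last 3 were dim, at means of 5.02, 4.72 and 5.34. The Cenpa probe set ran from 6.82 ± 0.12 in subline 21 and 6.83 ± 0.16 in subline 28 to 7.35 ± 0.05 in subline 13 (n = 3 each, ± SD). Its order of sublines was not that of the bright Cenpa probe set on array A, where subline 28 was highest at 9.44 ± 0.10 and subline 20 lowest at 8.84 ± 0.17. The 2 probe sets of this gene disagree, and the file does not say which transcripts each one reads.

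In single sublines 2 member comparisons of array B were called (background 0.276%). Mcm6 was lower in subline 21 on the dim probe set, at 4.45, 4.57 and 4.42 against 4.52 to 4.96 (-0.25 ± 0.06, limma adjusted p = 0.0263, background 0.0933%), and the probe set's mean of 4.72 lies within the control range. It was not called without tumour 1 of that subline (adjusted p = 0.262). Top2a was higher in subline 23, which had no kept array A, at 8.41 and 7.85 in the 2 tumours kept against 7.25 to 8.18 (median 7.61) elsewhere. It differed by 0.52 ± 0.15 (limma adjusted p = 0.0391, background 1.19%), and tumour 1 alone lay above all others. With all arrays, which adds the tumour left out, the difference was 0.30 (adjusted p = 0.226). Of the remaining genes on array B, Cenpe ran from 7.35 through a median of 7.98 to 8.59 (limma adjusted p = 0.643), Tyms from 5.68 through 5.92 to 6.25 (0.554) and a dim Mcm5 probe set from 5.66 through 5.90 to 6.18 (0.482). Nek2, Ttk, Rrm1 and Ccne1 were not called.

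Other genes of the cell cycle, from lists that hold none of the members, gave few calls as well. Among regulators of entry, exit and checkpoints the F test on array A called 0 of 57 probe sets (limma; 4 at an unadjusted p under 0.05). Among other replication genes it called 0 of 39 (0 at an unadjusted p), and among other mitosis genes 1 of 52 (8 at an unadjusted p). The called gene was securin (Pttg1), which restrains separase until anaphase. It ran from 10.26 ± 0.25 in subline 21 to 11.24 ± 0.32 in subline 14 (n = 3 each, ± SD), 1.98-fold (limma adjusted p = 0.0177). Its other probe sets were not called (adjusted p = 0.257 and 0.707), and the call was lost with all arrays (0.358) and without replicate 1 (0.719) or replicate 3 (0.265). The other leading genes were the CDK inhibitor Cdkn1c (limma adjusted p = 0.0821), the retinoblastoma gene Rb1 (0.126), the centromere protein Cenpf (0.119), the clamp loader subunit Rfc3 (0.351) and Uhrf1, which helps to copy DNA methylation (0.418).

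Some genes of these lists were called in sublines 21 and 22, which also held most calls over all probe sets. Of their 57 regulator, 39 replication and 52 mitosis probe sets on array A, 1 was called higher and 2 lower in subline 21. In subline 22, 6 were called lower. Over all probe sets of the array 0.99% were called lower in subline 21 and 2.56% in subline 22. With so few calls, these counts do not set the lists apart from probe sets in general. The share of all probe sets called higher in subline 21 is not given here. In subline 21 Rb1, whose product holds back E2F, was higher, at 10.27, 10.08 and 10.39 against 9.06 to 10.27 (median 9.60). Only 2 of 49 other tumours lay above the lowest of the 3, and the difference was 0.62 ± 0.14 (SE, limma adjusted p = 0.00787). Without tumour 1 it was 0.61 ± 0.17 and no longer called (adjusted p = 0.0685). The kinetochore gene Spc25 (-0.37 ± 0.10, limma adjusted p = 0.0284) and E2f4 (-0.17 ± 0.05, 0.0490) were lower. The other Spc25 probe set differed by -0.07 ± 0.08 and was not called (limma adjusted p = 0.662). All 3 calls of subline 21 were lost without tumour 1, without replicate 1 or 3 of all sublines, with all arrays and with array weights. In subline 22 the condensin subunit Smc4 was lower, at 6.64, 7.00 and 7.09 against 6.82 to 8.09, by -0.66 ± 0.14 (limma adjusted p = 0.00579), while its other probe sets were not called (-0.20 and -0.22). Hmmr, a spindle protein, was lower by -0.63 ± 0.17 (adjusted p = 0.0269) on 1 of 4 probe sets. Racgap1, of the centralspindlin complex of cytokinesis, was lower by -0.41 ± 0.11 (limma adjusted p = 0.0340), and its other probe set was not called (-0.32 ± 0.15). The others lower in subline 22 were E2f3 (-0.29 ± 0.08, limma adjusted p = 0.0269), Rfc3 (-0.28 ± 0.08, 0.0499) and the kinase Wee1, which restrains Cdk1 (-0.43 ± 0.12, 0.0414). The other Wee1 probe set, brighter at a mean of 10.04, differed by only -0.05 ± 0.12 (limma adjusted p = 0.929). The other Rfc3 probe set was not called either (-0.28 ± 0.12, 0.228). All 6 calls of subline 22 were lost with all arrays, without replicate 1 and without replicate 2 of all sublines, and 3 of them (Racgap1, Rfc3 and Wee1) without replicate 3.

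In subline 28, where no member passed, 28 of 52 other mitosis probe sets and 13 of 39 other replication probe sets had an unadjusted p under 0.05 in the higher direction, with 0 called by limma in either list. Of all probe sets, 5.6% had such an unadjusted p. Their medians were 0.26 and 0.15, and that of the regulators was 0.03.

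The genes outside the set that followed it most closely over the 52 tumours, by Pearson correlation with the mean of all members, were the nucleosome assembly gene Nap1l1 (0.90), Racgap1 (0.90), the centriole kinase Plk4 (0.89) and the CDK subunit Cks2 (0.88). Then came Rfc5 (0.88), Ncaph (0.88), Cdca3 (0.88), Ranbp1 (0.88), Gins1 (0.87) and Pbk (0.87). Of these 10, Racgap1, Rfc5, Ncaph and Gins1 are on the other cell cycle lists.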

How the data were processed

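Total RNA of 56 mammary tumours was labelled with biotin and hybridised to 1 MOE430A and 1 MOE430B array each. The deposited tables hold log2 values, which the authors made by RMA, a robust average over the probes of a set, as the submitters' processing notes name it. Version and probe set definition: not given in the sources used here. Array A spans 3.71 to 14.89 and array B 3.51 to 14.35; both were used unchanged and separately. The 64 control probe sets of each type were set aside, leaving 22626 and 22511.

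The members and all lists were chosen with earlier results of these data known. Limma 3.58.1 in R 4.3.3 was fitted to all probe sets with 1 mean per subline (lmFit, eBayes), with Benjamini-Hochberg adjustment over each array, or within each subline's comparison. A gene's brightest array A probe set stood for it in means and correlations. Correlations carry no p, since tumours share labelling, array type and normalization. Values in full were given for the 8 members with the smallest F test p on each array, up to 3 calls in each direction per subline, Mki67, Top2a, Mcm2, Pcna and Ccne1, 2 genes per other list and the 10 genes most alike. Subline 28, the remaining calls, and other members named for their range or place in the order were chosen after their values were seen. The fit was tested on simulated data. Promoters came from the RefSeq table. Alternatives are given in the closing section.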

Additional observations from a re-analysis of the deposited data

Results flagged for a closer look

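Only subline 2, with 4 kept tumours, was large enough for a check of single tumours far from the rest. It was applied to 28 probe sets and found 3, where chance flags about 1 in 20 groups. On array A Rrm1, a subunit of ribonucleotide reductase, read 10.76 in tumour 2, against 10.10 to 10.21 in the other tumours of subline 2. On array B the dim Aurka probe set read 4.80 in tumour 2, against 5.09 to 5.11 in the others. On array B Tyms read 6.25 in tumour 1, against 5.85 to 5.92. Tumour 2 was the highest of subline 2 for the common cell cycle level and tumour 1 the lowest.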

How the results depend on the processing

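The counts of member probe sets called by limma were 1 of 71 among sublines and 9 in single sublines on array A, and 0 of 17 and 2 on array B. Array quality weights made these 22, 34, 5 and 7, where 9234 of 22626 probe sets of array A were called in all. With all arrays they were 0, 46, 0 and 1; the 46 were all in subline 23, where 69.3% of all probe sets of array A were then called. With median centring they were 0, 7, 0 and 1. With the replicate block they were 0, 8, 0 and 2. Without the dimmer probe sets array B gave 1 and 1. Without each replicate number array A gave 0 and 0 to 11, and array B 0 to 1 and 0 to 2. Without tumour 1 of subline 21, an alternative chosen after seeing the data, they were 0, 5, 0 and 1. Where limma called 0 among sublines, 2 to 16 probe sets of array A and 2 to 6 of array B had an unadjusted p under 0.05.

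The 4 lower in subline 21 became 0 with all arrays, array weights and without tumour 1, and 0 to 11 without each replicate number. The 5 lower in subline 22 became 0 with all arrays and 0 to 4 without each replicate number. The 0 higher in subline 28 became 4 with array weights and 1 without the dimmer probe sets. On array B the 1 lower in subline 21 became 0 with all arrays, array weights, without the dimmer probe sets and without tumour 1, and 0 to 1 without each replicate number. The 1 higher in subline 23 became 0 with all arrays, array weights and median centring, and 0 to 1 without each replicate number. The cause was not tested. The ranges of the S phase minus mitosis difference and its value in subline 28 moved by less than the spread between tumours under the alternatives run for them, and no direction reversed among the results recomputed.

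The replicate numbers did not pair the tumours: same-numbered tumours had a median correlation of deviations of 0.00067, others -0.0030, and 28 of 52 were closer to their own number. With the replicate block Ccna2 among sublines and Mcm7 in subline 21 had limma adjusted p of 0.0521 and 0.0556, and it changed no other call of the members named.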

Other observations

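The genes that ran most strongly against the common cell cycle level on array A, looked for after the values were seen, were Itm2b, a membrane protein (Pearson -0.76 over 52 tumours), Iqsec1, an ARF exchange factor (-0.72), Plekhg5 (-0.70) and Kitl, the ligand of the Kit receptor (-0.69). Next came Adra2c (-0.67) and Gas6, the ligand of the Axl family of receptors (-0.67). Pkd1, Ppp1r3c, Hdac7 and the thyroid hormone receptor gene Thra read -0.66 each. Itm2b was abundant, with a mean of 13.65. These values describe tumours that share labelling, array type and normalization.

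Some probe sets of a member ran apart from its brightest one. A Top2a probe set with a mean of 6.53 had a correlation of -0.28 with the brightest, and a Nusap1 probe set with a mean of 6.27 one of 0.14. The Foxm1 probe sets with means of 8.52 and 7.84 correlated at 0.72 and 0.47 with the brightest.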
